A study of Sus scrofa with 12 samples.

Results

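FKBP5, NR3C1 and AGT were followed across the muscle of 12 pigs. The 3 genes were chosen by their pattern across drip levels and for their role in the response to stress hormones, out of 20741 features counted in these animals. Drip loss is the fluid that meat releases after slaughter, and the animals carried either a high or a low drip label. Each drip level held 6 animals, 3 females and 3 males, in which replicates 1 to 3 are the females and replicates 4 to 6 the males. The high drip animals were 167 to 186 days old and the low drip animals 172 to 189 days old. The labels name no breed, treatment or particular muscle.

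Glucocorticoids such as cortisol enter cells and bind the glucocorticoid receptor, encoded by NR3C1, which waits in the cytoplasm in a complex with HSP90 and its cochaperones. The bound receptor moves to the nucleus and switches target genes on or off. FKBP5 encodes a cochaperone of that complex that lowers the receptor's affinity for the hormone, and it is itself a target gene, so it acts in a feedback loop. AGT encodes angiotensinogen, the precursor of the angiotensin peptides, made mainly by liver and also by fat, and it is another gene that glucocorticoids can induce. In skeletal muscle the hormone is known for promoting protein breakdown and a switch of fuel use from glucose to fat.

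Library totals ran from 8009627 to 12622043 counts with a median of 9749102.5. Each animal has a table over all annotated features and a second one over regions with loci for water holding capacity, where NR3C1 is also listed. For 3 females, high drip replicate 2 and low drip replicates 1 and 2, the recorded whole-genome table carries another animal's number. Tables were therefore taken by number, under which the count of non-unique alignments is the same in both tables of all 12 animals, against 9 as recorded. NR3C1 shows the same conflict, with 756, 494 and 489 counts in the region tables of high drip replicate 2 and low drip replicates 1 and 2, and 489, 756 and 494 in the tables recorded for them. By number, both tables give NR3C1 equal counts in every animal except low drip replicate 6, with 908 and 909. Values without these 3 animals and with tables as recorded are given where they bear on a result. The 6 of 16 muscle markers with a symbol in the name table all had counts in every library, with sums from 122510 to 162820 CPM (counts scaled to the library total). Liver transcripts were present in 6 libraries, those of high drip replicates 1 to 4 together with low drip replicates 5 and 6, where the albumin gene ALB lay between 26.7 and 311 CPM, against 0.352 to 2.35 CPM in the others.

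FKBP5 had the widest spread of the 3 genes and fell into 2 separate sets of animals. Levels are CPM of the tested features, scaled with TMM factors, which compare a gene between libraries but not one gene with another. In high drip females FKBP5 was at 61.9, 71.1 and 81.8 CPM, in replicate order. High drip males were at 43.3, 54.0 and 68.4 CPM. Low drip females were at 148, 173 and 70.4 CPM, and low drip males at 147, 67.0 and 159 CPM. Low drip replicates 1, 2, 4 and 6 thus stood at 147 to 173 CPM and no animal lay between 81.8 and 147 CPM. The other 8 animals, the 6 high drip ones and low drip replicates 3 and 5, stood at or below 81.8 CPM. Counting error is small beside that gap, since low drip replicate 3 with 601 counts has a 95% exact Poisson interval of 64.9 to 76.3 CPM and low drip replicate 4 with 1437 counts one of 139 to 154 CPM (intervals cover counting error only). Each sex contributed both low and high values to the low drip level, so the sets do not follow sex.

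The mean of FKBP5 was 63.4 ± 13.6 CPM in high drip animals and 127 ± 46.5 CPM in low drip animals (SD, n = 6 each). The fitted log2 fold, high minus low drip with sex as a term, was -1.02 ± 0.23 (± is the standard error of the fit for every fold here). It was -0.87 ± 0.29 in the 6 females alone and -1.17 ± 0.31 in the 6 males alone. Without the 3 animals in conflict the means were 61.9 ± 14.6 CPM (n = 5) and 111 ± 48.9 CPM (n = 4), with a fold of -0.83 ± 0.30. With tables as recorded, the library at 173 CPM belongs to high drip replicate 2 and the one at 71.1 CPM to low drip replicate 1, and the fold was -0.52 ± 0.34. The size of the FKBP5 difference therefore depends on which assignment is right, and its direction was the same under all 3. The members were picked on this contrast, so these folds are a description and carry no test.

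NR3C1 was nearly flat in the 6 high drip animals and in 4 of the low drip ones. In high drip females it was at 52.8, 58.9 and 59.8 CPM, and in high drip males at 60.4, 58.4 and 59.1 CPM. Low drip females were at 53.9, 49.3 and 59.7 CPM. Low drip males were at 58.3, 123 and 81.4 CPM. Low drip replicates 5 and 6, both male, were thus the only animals above 60.4 CPM. The coefficient of variation was 4.75% over high drip animals and 39.3% over low drip animals. Means were 58.2 ± 2.77 and 71.0 ± 27.9 CPM (n = 6 each), the median was 59.0 CPM at both levels, and the fold was -0.25 ± 0.17. Without low drip replicate 5 the fold was -0.06, so the mean difference leans on that male. Over the 9 animals whose tables agree it was -0.42 ± 0.20, and with tables as recorded -0.33 ± 0.16.

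The region tables gave NR3C1 a much higher CPM because their totals are smaller, with the same shape. High drip animals lay between 3119 and 3740 CPM of the tested region features, and low drip animals between 3120 and 8215 CPM. Low drip replicate 5 was at 8215 and low drip replicate 6 at 5332 CPM, while the other 4 low drip animals stood at 3120 to 3472 CPM. The fold was -0.29 ± 0.20, and -0.08 without low drip replicate 5. These counts come from the same libraries and add no independent replicate. Both high animals are among the libraries with liver transcripts, at 56.4 and 40.0 CPM of ALB. The other 4 libraries with such transcripts, all high drip, had NR3C1 at 52.8 to 60.4 CPM. All 14 tested liver markers had r above 0 with NR3C1 over the 12 animals, with a median of 0.33. After subtracting sex and drip group means the median was 0.50, and over all tested features the medians were -0.005 and -0.01. The part of liver transcripts in the NR3C1 values was not tested.

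AGT, the precursor of angiotensin, was at 16.3, 19.3 and 12.3 CPM in high drip females and at 19.1, 20.5 and 17.7 CPM in high drip males. Low drip females were at 31.1, 21.7 and 17.6 CPM, and low drip males at 31.6, 25.7 and 32.6 CPM. All low drip animals except replicate 3, at 17.6 CPM, lay above the highest high drip animal at 20.5 CPM. Means were 17.6 ± 2.96 CPM at high drip and 26.7 ± 6.14 CPM at low drip (n = 6 each), and the fold was -0.60 ± 0.15. It was -0.55 ± 0.25 in females and -0.65 ± 0.15 in males. AGT changed least with the assignment of tables, with -0.55 ± 0.15 in the 9 animals without a conflict and -0.54 ± 0.16 as recorded. AGT rests on 114 to 364 counts per library, and its lowest level, 12.3 CPM in high drip replicate 3, has a 95% exact Poisson interval of 10.1 to 14.8 CPM.

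**Figure D1:**
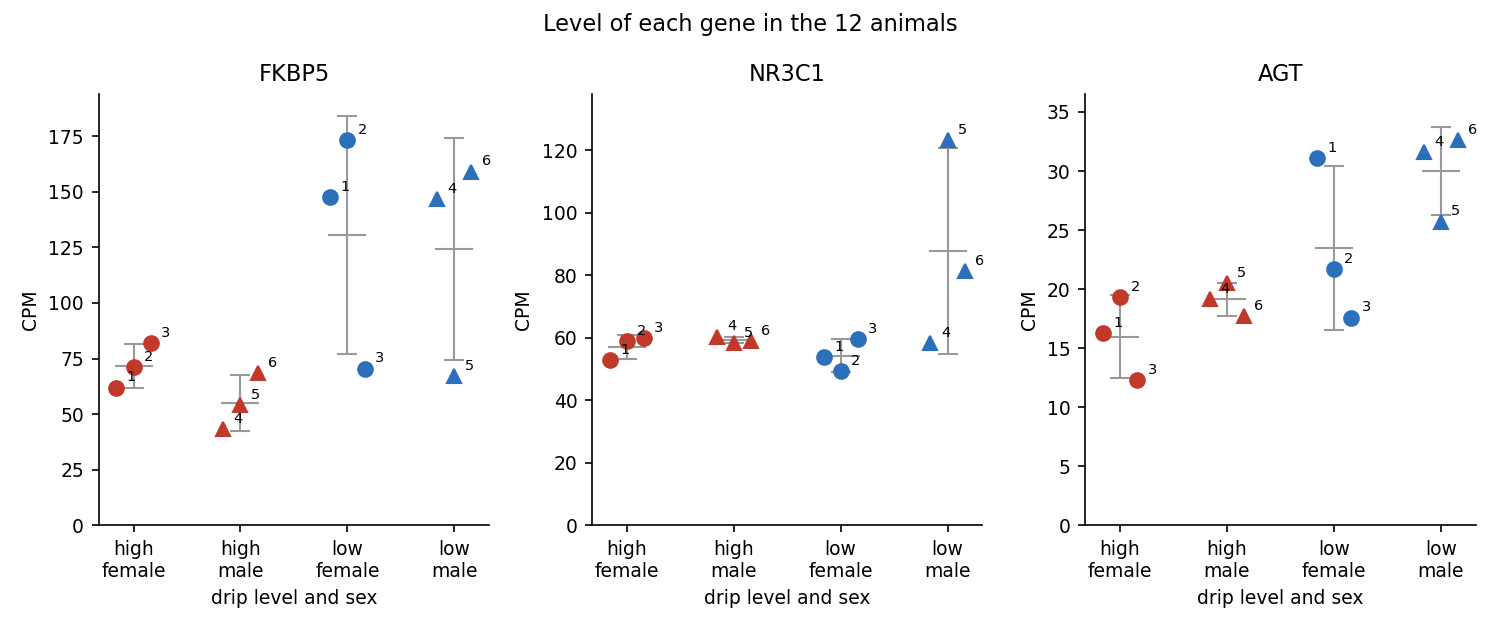
CPM of FKBP5, NR3C1 and AGT (vertical axes, from 0) in each of the 12 animals, by drip level and sex. Points are animals with their replicate number, and grey bars are the mean and SD of 3 animals. FKBP5 is at 147 to 173 CPM in low drip replicates 1, 2, 4 and 6, NR3C1 stands out in low drip replicates 5 and 6, and AGT is above 20.5 CPM in all low drip animals except replicate 3.

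All 3 genes passed the filter on low counts, and none of them had high and low drip animals that did not overlap, a pattern seen in 11 of 10411 tested features (0.106%). In the edgeR quasi-likelihood fit over all features, 0 (0%) passed an adjusted p of 0.05 for drip and 369 (3.54%) had an unadjusted p under 0.05. The limma voom test gave 0 and 361, and DESeq2 gave 0 and 355. Since the contrast chose the genes, nothing is read from where they fall among these.

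Sex was not used to choose the genes and was tested in the same fit. No member differed between males and females at the threshold. NR3C1 was at 55.7 ± 4.37 CPM in females and 73.5 ± 26.0 CPM in males (n = 6 each), a fold of 0.37 ± 0.17 for male minus female (edgeR adjusted p = 0.759, unadjusted p = 0.0419). Without low drip replicate 5 it was 0.19. AGT was at 19.7 ± 6.41 CPM in females and 24.6 ± 6.46 CPM in males, a fold of 0.31 ± 0.15 (edgeR adjusted p = 0.759). With the 3 conflicting females left out AGT had a fold of 0.55 ± 0.16 (edgeR adjusted p = 0.644). FKBP5 was at 101 ± 47.2 CPM in females and 89.7 ± 49.9 CPM in males, a fold of -0.22 ± 0.23 (edgeR adjusted p = 0.877), and 0.04 ± 0.32 without those females. Over all features 0 of 10411 (0%) passed for sex and 679 (6.52%) had an unadjusted p under 0.05, of which NR3C1 is 1. The voom test called 0 features with 698 below that unadjusted p, and DESeq2 called 2 with 682 below it.

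The drip difference was next compared between the sexes with an interaction term, the difference in males less that in females. It is built from the drip contrast, so it is not independent of how the genes were chosen. For NR3C1 females had a fold of 0.08 ± 0.15 and males one of -0.57 ± 0.24, and the interaction was -0.64 ± 0.30 (edgeR adjusted p = 1.00, unadjusted p = 0.0495). In the region tables it was -0.79 ± 0.33 (edgeR adjusted p = 0.868). Without low drip replicate 5 these values were -0.31 and -0.40. FKBP5 had an interaction of -0.30 ± 0.47 and AGT one of -0.10 ± 0.31, which became 0.06 without high drip replicate 2 or without low drip replicate 3. With 9 animals low drip replicate 3 is the only low drip female left, so the female difference rests on that animal. The interactions there were -1.21 for FKBP5, -0.50 for NR3C1 and -0.37 for AGT. Over all features 0 of 10627 (0%) passed for the interaction and 371 (3.49%) had an unadjusted p under 0.05, NR3C1 among them. The voom test called 0 with 340 below that unadjusted p, and DESeq2 called 7 with 329 below it.

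Co-variation of the 3 genes was followed animal by animal. In the low drip animals with FKBP5 at 147 to 173 CPM, replicates 1, 2, 4 and 6, AGT was at 31.1, 21.7, 31.6 and 32.6 CPM. The remaining low drip animals, replicates 3 and 5, had FKBP5 at 70.4 and 67.0 CPM and AGT at 17.6 and 25.7 CPM. The 3 highest values of AGT thus belong to animals with high FKBP5, while low drip replicate 2, the highest for FKBP5, lay below low drip replicate 5 for AGT. In order of falling FKBP5, low drip replicates 2, 6, 1, 4, 3 and 5 had NR3C1 at 49.3, 81.4, 53.9, 58.3, 59.7 and 123 CPM. NR3C1 thus rose along this order except in low drip replicate 6, second highest for both genes. By rank over the 6 low drip animals, FKBP5 and NR3C1 had rho = -0.657 (exact permutation p = 0.175, adjusted p = 0.857). FKBP5 and AGT had rho = 0.257 there (exact permutation p = 0.658, adjusted p = 0.857), so neither pair passed. Because FKBP5 falls into separate sets in low drip animals, no r of it with NR3C1 or AGT is given there or over all 12 animals. Such an r would mix the step between the sets with the order inside them.

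Correlations within a drip level were tested on log2 CPM by exact permutation (two-sided, n = 6 each). In high drip animals, which all sit in the lower FKBP5 set, FKBP5 and AGT had r = -0.65 (exact p = 0.153, adjusted p = 0.475 over 6 pairs, which count the 2 low drip pairs with FKBP5) and rho = -0.486 (exact p = 0.356, adjusted p = 0.857). FKBP5 and NR3C1 had r = -0.048 (exact p = 0.936) and rho = 0.0286 (exact p = 1.00). NR3C1 and AGT had r = 0.052 (exact p = 0.911) in high drip animals and r = 0.171 (exact p = 0.736) in low drip animals. The rho of NR3C1 and AGT was -0.2 and 0.2 at these levels, each with an exact p of 0.714. No pair passed after adjustment, and both pairs with NR3C1 changed sign in high drip animals when single animals were left out. Without the 2 animals farthest from the median of FKBP5, the FKBP5 and AGT value was -0.32, and that of FKBP5 and NR3C1 0.22. Over all 12 animals NR3C1 and AGT had r = 0.315 and rho = 0.007, given as a description, and r was -0.27 without the 2 animals farthest from the median of NR3C1.

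**Figure D2:**
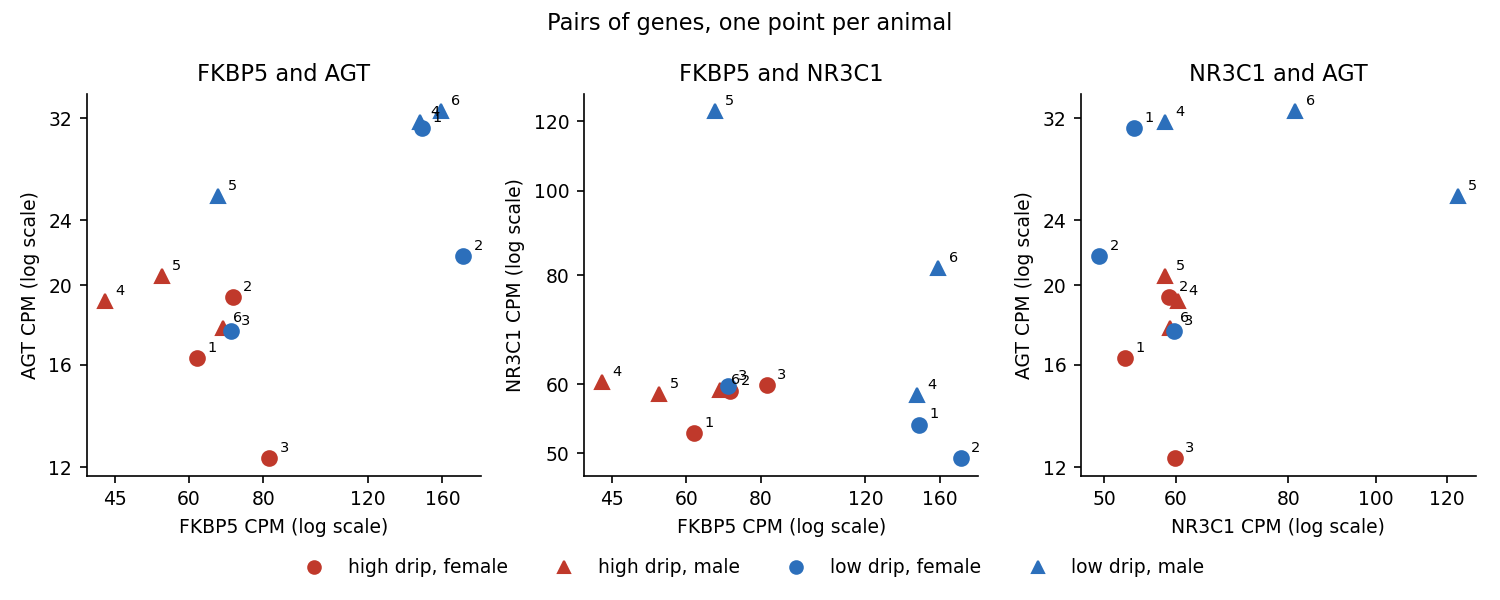
Pairs of genes plotted against each other in CPM on log scales, one point per animal with its replicate number. Low drip replicates 1, 2, 4 and 6 are set apart on the FKBP5 axes at 147 to 173 CPM, and low drip replicate 5 stands alone at 123 CPM on the NR3C1 axes.

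Age showed no relation that passed a test. NR3C1 had r = -0.295 (permutation p = 0.375) and rho = -0.372 (permutation p = 0.231) with age in days over 12 animals, and AGT r = -0.160 (permutation p = 0.618) and rho = -0.234 (permutation p = 0.461). Adjusted p-values were 0.828 for r and 0.691 for rho for both genes, and without the 2 animals farthest from the median age r was -0.33 for NR3C1 and -0.03 for AGT. In high drip animals FKBP5 had r = 0.019 with age (exact p = 0.972, n = 6) and rho = 0.0857 (exact p = 0.919).

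Genes that glucocorticoids are known to induce were read beside FKBP5 as a fixed list of 45, of which 26 had an ID with the symbol and 23 besides FKBP5 were tested. Of these 23, 18 had a fold below 0, that is lower in high drip animals, as FKBP5 was. The median fold was -0.13, against 0.003 over all tested features, of which 49.4% were below 0. None passed an adjusted p of 0.05. With 9 animals 19 of 23 were below 0 with a median of -0.19, and the median was -0.08 without high drip replicate 6. Lists are described by counts and medians with no test, and the list was made with earlier results of these animals known.

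KLF9, a transcription factor that responds quickly to glucocorticoids, had the highest r with FKBP5 on this list over the 12 animals, 0.770. That r includes the step between the FKBP5 sets, and it was 0.740 after subtracting sex and drip group means. Over the 23 genes the median r was 0.13, with 15 above 0, against 0.01 over all tested features. After subtracting group means the list median was -0.06. KLF9 was at 148, 155, 228, 143, 234 and 174 CPM in high drip replicates 1 to 6, and at 245, 349, 179, 212, 178 and 250 CPM in low drip replicates 1 to 6. Low drip replicates 1, 2, 4 and 6 stood above low drip replicates 3 and 5 in KLF9 as in FKBP5, while high drip replicates 3 and 5 reached into their range. The fold was -0.38 ± 0.18, -0.13 in the 9 animals and 0.06 with tables as recorded. TRIM63, a ubiquitin ligase of muscle wasting, averaged 648 ± 203 CPM at high drip and 912 ± 276 CPM at low drip (n = 6 each), a fold of -0.50 ± 0.23. FBXO32, the other well known ligase of that kind, had a fold of -0.02 ± 0.38, with levels from 25.9 to 138 CPM. PDK4, a kinase that restrains the use of glucose in mitochondria, ranged from 83.2 CPM in high drip replicate 6 to 3162 CPM in low drip replicate 2, and its fold was -0.36 ± 0.55.

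Other listed targets did not pass the adjusted p either. The kinase SGK1 had a fold of -0.34 ± 0.17, the transcription factor ZBTB16 -0.25 ± 0.13, the repressor BCL6 -0.10 ± 0.22 and the clock gene PER1 -0.04 ± 0.25. Myostatin, MSTN, a brake on muscle growth, had 0.21 ± 0.28. Of the 23 tested genes besides FKBP5, 1 had an unadjusted p under 0.05, against 3.54% of all tested features. That gene was ANGPTL4, a secreted inhibitor of lipoprotein lipase, picked out after its values were seen. It went the other way, at 52.2, 58.6, 20.7, 42.2, 33.5 and 18.1 CPM in high drip replicates 1 to 6 and at 23.6, 22.2, 18.3, 34.0, 20.4 and 14.8 CPM in low drip replicates 1 to 6. Its fold was 0.74 ± 0.28 and both groups overlapped. TSC22D3, KLF15, CEBPD, DDIT4 and GLUL, other common targets, had no ID with that symbol in the name table and were not analysed here.

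**Figure D3:**
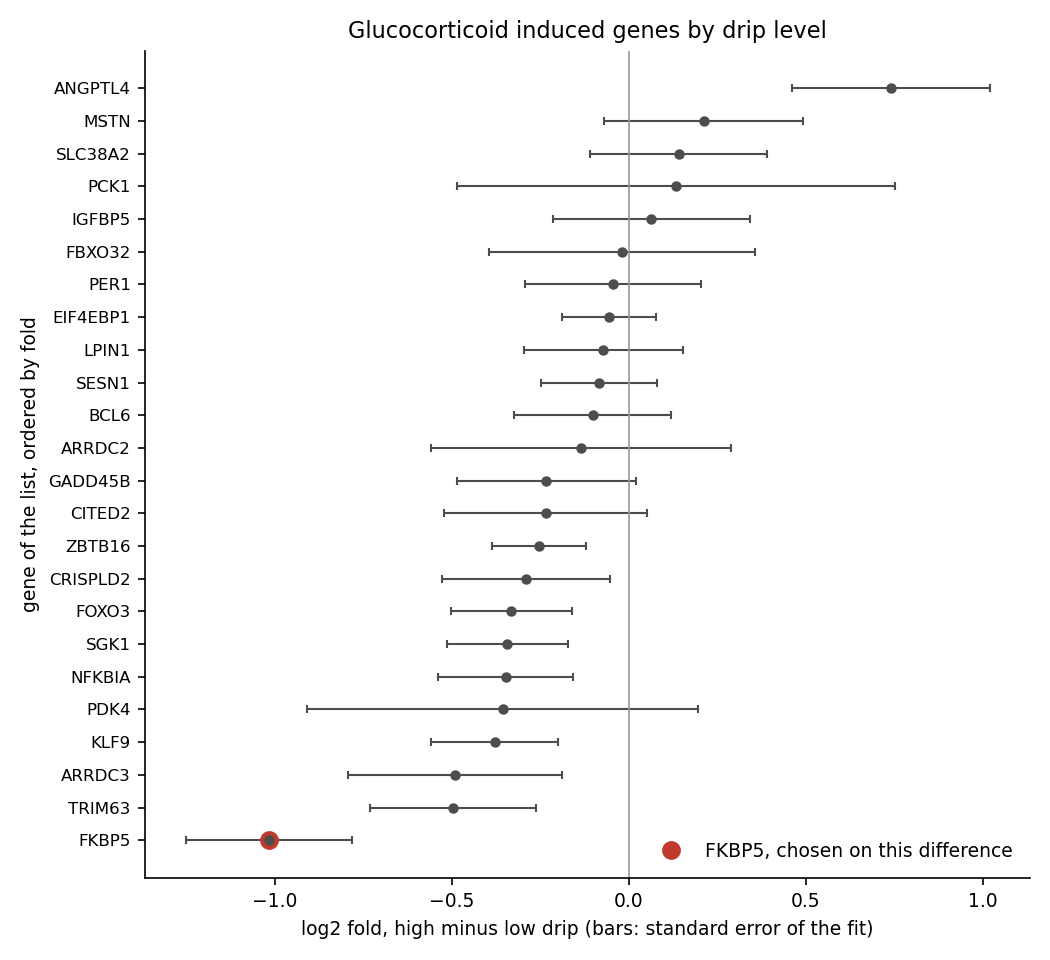
Log2 fold, high minus low drip, of the 24 tested genes of the glucocorticoid induced list (horizontal axis), with the standard error of the fit as bars. FKBP5 lies at -1.02, 18 of the other 23 genes lie below 0, and ANGPTL4 lies farthest above it at 0.74.

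The receptor complex itself showed no common direction. Of 14 tested cochaperones besides the members, 7 had a fold below 0, with a median of -0.03, and none passed the adjusted p. HSP90AA1 and HSP90AB1, the HSP90 proteins that hold the receptor, had folds of -0.08 ± 0.12 and -0.14 ± 0.11, and the chaperone HSPA8 0.04 ± 0.12. FKBP4, the relative of FKBP5 that competes with it in the complex and favours transport of the receptor to the nucleus, averaged 296 ± 32.2 CPM at high drip and 312 ± 50.6 CPM at low drip (fold -0.07 ± 0.12). In the low drip animals FKBP4 was at 284, 255, 396, 329, 277 and 328 CPM in replicate order, which does not follow the FKBP5 sets. Of the 8 tested FKBP family genes besides FKBP5, 5 were below 0 with a median of -0.05, and FKBP8 and FKBP9 had 0.02 ± 0.10 and 0.05 ± 0.08.

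Receptor cofactors, which link the bound receptor to the transcription machinery, had 11 of 15 tested genes below 0 with a median of -0.05. None passed, and 49.4% of all tested features were below 0. With 9 animals 13 of 15 cofactors were below 0 with a median of -0.11. A lean below 0 was therefore not particular to the glucocorticoid induced list. The coactivator NCOA4 had a fold of -0.09 ± 0.08, the acetyltransferase EP300 0.02 ± 0.13 and the methyltransferase PRMT1 -0.03 ± 0.13. Of the 15 cofactors 1 had an unadjusted p under 0.05, against 3.54% of all tested features. It was MED1, a Mediator subunit, picked out after its values were seen, with a fold of -0.20 ± 0.09. Enzymes that make or clear the hormone were scarcely measured, since HSD11B1 and H6PD had no ID with that symbol, and neither had NR3C2, the mineralocorticoid receptor, which also binds cortisol. HSD11B2, which inactivates cortisol, was at 0 to 0.321 CPM and SERPINA6, the cortisol carrier, at 0 to 1.03 CPM, and neither was tested. The exporter ABCC1 had a fold of 0.001 ± 0.23 and HSD17B12, a steroid and fatty acid reductase, 0.04 ± 0.12.

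Beside AGT, the other renin angiotensin genes had 3 of 8 tested genes below 0 and a median of 0.03, and none passed. With 9 animals 5 of 8 were below 0 with a median of -0.006. ACE, the enzyme that makes angiotensin II, averaged 21.3 ± 4.45 CPM at high drip and 21.2 ± 5.25 CPM at low drip (n = 6 each, fold 0.006 ± 0.18). AGTR1, the main angiotensin II receptor, had 18.2 ± 3.68 against 20.6 ± 5.49 CPM (fold -0.17 ± 0.16). The peptidases PREP and THOP1 had folds of 0.12 ± 0.11 and 0.09 ± 0.10. AGT was thus the gene of this list with the largest fold in size, which is the property it was picked for.

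AGT is a gene of liver and fat, so transcripts of both were read beside it. Summed over the 9 of 14 adipocyte markers with an ID, all with counts in every library, fat transcripts were at 245 to 768 CPM of the library total in high drip animals (median 406) and at 359 to 840 CPM in low drip animals (median 481). Of the 9 markers 8 had a fold below 0 and the median was -0.38, which was -0.10 without low drip replicate 6. None passed, and 2 of the 9 had an unadjusted p under 0.05, against 3.54% of all tested features. These were CIDEC and FASN, which store and make fat, with folds of -0.72 ± 0.33 and -0.73 ± 0.27. The lipid droplet gene PLIN1 had -0.48 ± 0.37. Of the 9 markers 8 had r above 0 with AGT over all animals, with a median of 0.59, and PLIN4 had -0.11. These values include the drip difference AGT was picked for. After subtracting sex and drip group means the median was 0.44. Over all tested features the medians were 0.018 and 0.024. High drip replicate 3 was lowest and low drip replicate 6 highest for both AGT and summed fat markers. However, high drip replicate 6, second highest for fat markers at 768 CPM, had AGT at 17.7 CPM. The part of fat transcripts in the AGT difference was not tested, and in bulk muscle fewer cells of a type and less RNA per cell cannot be told apart.

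Liver transcripts were read beside AGT in the same way. The 14 tested liver markers had a median r of -0.12 with AGT over the 12 animals. After subtracting sex and drip group means their median was 0.31. Over all tested features these medians were 0.018 and 0.024. The part of liver transcripts in the AGT values was not tested. Summed over 19 of 25 liver markers with an ID, liver transcripts were at 16.2 to 635 CPM in high drip animals (median 70.5). In low drip animals they were at 20.9 to 126 CPM (median 27.2). High drip replicate 2 had the highest sum, at 635 CPM, with AGT at 19.3 CPM. Low drip replicates 1 and 4 had sums of 22.2 and 21.9 CPM, with AGT at 31.1 and 31.6 CPM. ALB and APOC3, an apolipoprotein of liver, had folds of 1.94 ± 2.04 and 1.67 ± 1.27. The sign of these folds depends on the table assignment, with -0.72 and 0.03 in the 9 animals and -2.01 and -1.18 with tables as recorded. Over the 14 tested liver markers the median fold was 1.5, and -0.29 in the 9 animals with 11 of 14 below 0. For FKBP5, the high animals low drip replicates 1, 2 and 4 had ALB at 0.706 to 2.35 CPM and low drip replicate 6 had 40.0 CPM, so both kinds of library are among them.

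**Figure D4:**
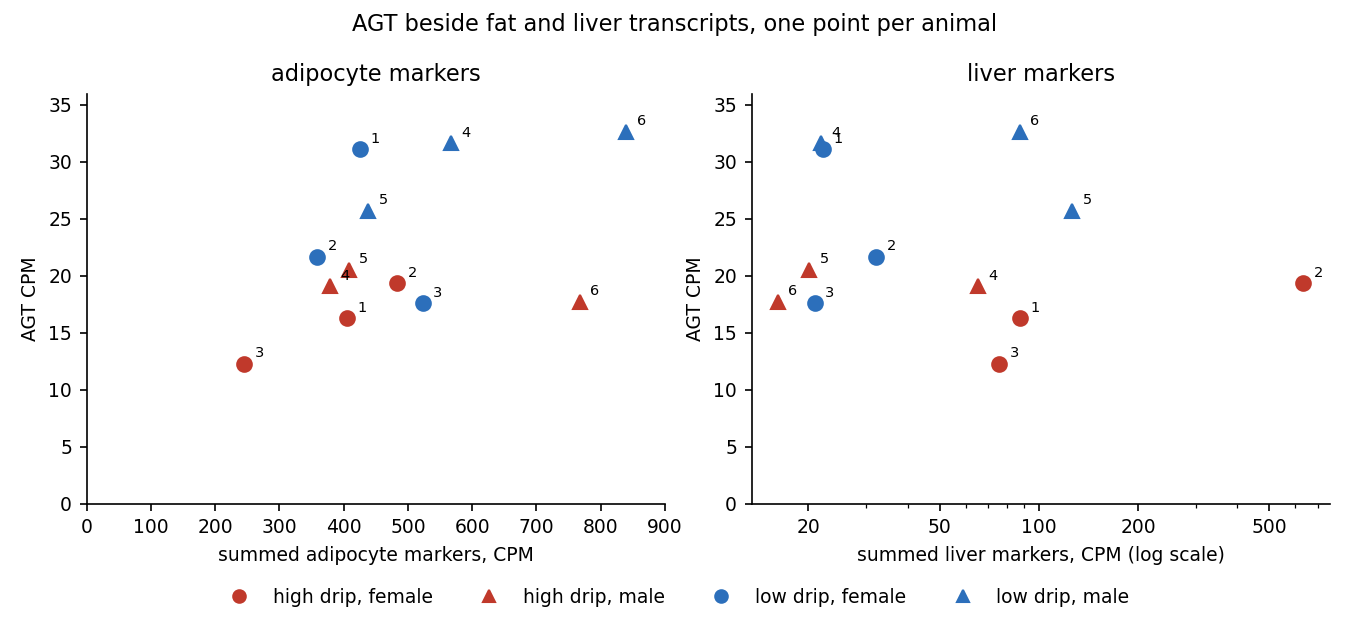
AGT in CPM (vertical axes, from 0) against summed adipocyte markers (left) and summed liver markers (right, log scale) in CPM of the library total, one point per animal with its replicate number. Low drip replicates 1 and 4 have AGT above 31 CPM with liver sums near 22 CPM, and high drip replicate 2 has AGT at 19.3 CPM with a liver sum of 635 CPM.

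The genes most like each member were listed by Pearson r of log2 CPM over the 12 animals, among 5436 genes with a symbol and a mean of at least 5 CPM. These values describe patterns in shared libraries, and for FKBP5 they include the step between its separate sets of animals. For each member the genes were picked for their r over these same animals. A pattern they share with it is what the ranking selects, and it was not tested. Nearest to FKBP5 were POLK, a DNA polymerase of damage bypass (r = 0.878), CCDC6 (0.867), TUT4, an RNA uridyltransferase (0.861), EXOSC1, a subunit of the RNA exosome (0.844), and USP54 (0.830). POLK stood at 10.7 to 12.7 CPM in low drip replicates 1, 2, 4 and 6, and at 5.37 to 8.95 CPM in the other 8 animals, the same division as FKBP5. Most opposite were UQCRFS1, the iron sulphur subunit of respiratory complex III (-0.847), the lipid transporter ABCA7 (-0.840) and LINGO1 (-0.821). With 9 animals POLK, CCDC6 and TUT4 had r of 0.883, 0.908 and 0.908 with FKBP5.

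Nearest to NR3C1 were RRAGD, a GTPase of amino acid sensing (r = 0.893), the mismatch repair gene MSH3 (0.858), PIK3CA, a catalytic subunit of PI3 kinase (0.851), RAB23 (0.841) and AGFG1 (0.832). In low drip replicates 5 and 6 RRAGD reached 72.9 and 68.2 CPM, and the other animals lay at 46.8 to 56.0 CPM, the same pair of males in which NR3C1 was high. The rho of RRAGD and NR3C1 was lower, at 0.573. Most opposite were EIF2B2 (-0.878), a subunit of a translation initiation factor, and ZNF687 (-0.871).

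Nearest to AGT were SUPT16H, a subunit of the histone chaperone FACT (r = 0.849), GGNBP2 (0.843), the scramblase family gene PLSCR4 (0.813), NCOR1 (0.804) and DCAF13 (0.794). These values include the drip difference AGT was picked for. After subtracting sex and drip group means they were 0.609, 0.586, 0.716, 0.691 and 0.328 in the same order. GGNBP2 also had r = 0.809 with FKBP5 over the 12 animals. NCOR1, a corepressor of nuclear receptors, is also on the list of receptor cofactors, and it spanned only 37.0 to 44.3 CPM over the 12 animals, with a drip fold of -0.10 ± 0.08. Most opposite were RHOBTB2 (-0.858), the cell cycle inhibitor CDKN2C (-0.845) and PTGES2, a prostaglandin synthase (-0.803).

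**Figure D5:**
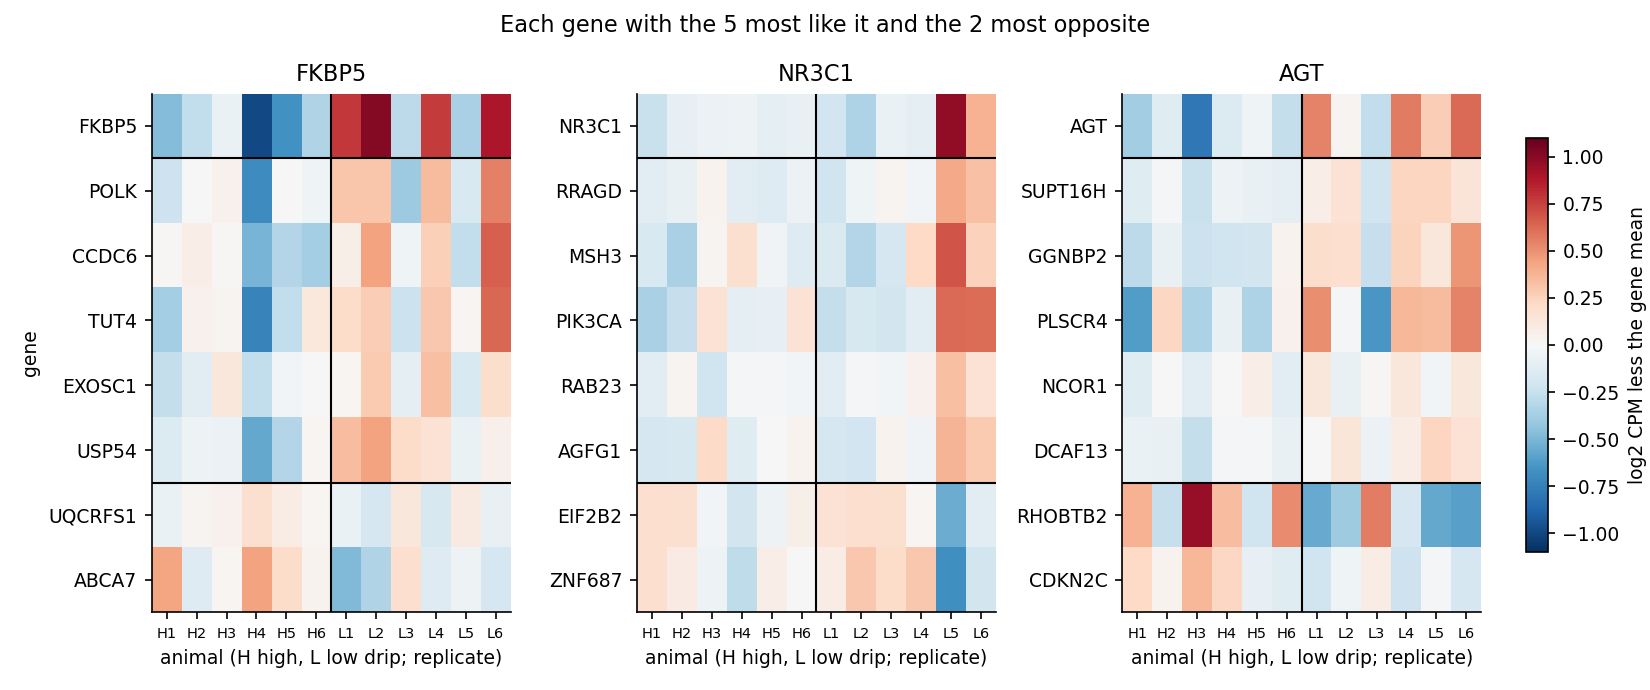
Log2 CPM less the gene's mean over the 12 animals (colour) for each of the 3 genes (top rows), the 5 genes most like it (middle) and the 2 most opposite (bottom), with high drip animals left and low drip animals right of the line. FKBP5 and POLK share their high values in low drip replicates 1, 2, 4 and 6, and NR3C1 and RRAGD theirs in low drip replicates 5 and 6.

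The genes that flank the members were checked for the same pattern, with the order of genes taken from RefSeq annotation of Sscrofa11.1, a later build than the one counted. On one side of FKBP5 lie TULP1, which had no ID with that symbol, and TEAD3, a transcription factor. TEAD3 had a drip fold of 0.46 ± 0.21, opposite in sign to FKBP5. ARMC12 on the other side of FKBP5 had -0.49 ± 0.53 at a mean of 1.70 CPM. ARHGAP26 and FGF1, on one side of NR3C1, had folds of -0.07 ± 0.22 and 0.28 ± 0.21. YIPF5 and KCTD16, on its other side, had no ID with those symbols. COG2, a Golgi complex subunit next to AGT, had -0.06 ± 0.18, and CAPN9 on the other side had 0 counts in these libraries. In that annotation a long noncoding RNA and a pseudogene overlap FKBP5, and a further protein coding locus overlaps NR3C1. The strand setting of the counting is not given in the sources used here, so reads of such overlapping loci cannot be told apart from those of the members.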

How the data were processed

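RNA from muscle of 12 pigs was sequenced from TruSeq libraries, per the labels' protocols. The tools were TopHat2 2.0.3, Bowtie 0.12.7.0 and HTSeq with the pig build Sscrofa10.2, per the submitters' processing notes; strand setting and annotation release are not given in the sources used here. The deposited values are raw counts per feature, not normalized by the authors, in a whole-genome table (20741 features) and a region table (770 features). Reads in no feature made up 24.2% to 29.3% of the entries per library and stayed out of totals and tests. Gene IDs were looked up unchanged in a name table, which gave a symbol to 10349 of 20300 Ensembl features; 147 of 237 list entries had an ID, and the other entries were not analysed here.

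Whole-genome tables were assigned by the number in the table's name. Counts were fitted with edgeR 4.0.16 in R 4.3.3 (filterByExpr, TMM, quasi-likelihood F-test, two-sided) on 10411 features with sex and drip, or 10627 with their product, and p-values were adjusted by Benjamini-Hochberg at a threshold of 0.05. Levels are CPM of the tested features, except the summed markers and untested genes, which are CPM of the library total, and log2 CPM has a prior count of 2. Correlations used exact permutation within a drip level and 100000 resamples over 12 animals, adjusted over 6 pairs or 3 ages. limma 3.58.1 (voom) and DESeq2 1.42.0 were alternatives, with another scaling, no filter, other table assignments, other covariates, each sex alone and each animal left out. The steps were tested on simulated data.

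Replicates are separate animals. The 3 members and the 14 gene lists were chosen with earlier results of these data known. Named genes were the members, the 4 most abundant and any passing members of each list that is not a marker list, a fixed set of genes always given, and per member the 5 genes with the highest and the 3 with the lowest r; 2 genes that this rule took are not reported here.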

Additional observations from a re-analysis of the deposited data

Results flagged for a closer look

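Within the 6 high drip animals, NR3C1 of high drip replicate 1 lay below the rest, at 52.8 CPM in the whole-genome table. The nearest other high drip animal was at 58.4 CPM, and that gap was 0.742 of the whole range of the group, above the critical value of 0.625 for 6 animals. The range itself was narrow, from 52.8 to 60.4 CPM. Of 8 groups of 6 animals checked in this way this was the only one singled out, and chance gives about 1 in 20 for each group. In the region tables the same animal, at 3119 CPM with the nearest other at 3338 CPM, was not singled out.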

How the results depend on the processing

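FKBP5, AGT and NR3C1 kept a negative drip fold over all animals under every scaling, tool, filter, covariate and table assignment tried, and when single animals were left out, where the folds ran from -1.16 to -0.90 for FKBP5, from -0.68 to -0.50 for AGT and from -0.32 to -0.06 for NR3C1 (-0.36 to -0.08 in the region tables). FKBP5 was -0.52 with tables as recorded, and NR3C1 was 0.08 in females alone. DESeq2 called 2 features for sex and 7 for the interaction, and edgeR with no filter on low counts called 1 for sex, each against 0. The FKBP5 sex fold became 0.036 in the 9 animals, and the AGT interaction 0.064 without high drip replicate 2 and 0.063 without low drip replicate 3 (from -0.35 to 0.064 over all animals left out). In high drip animals the r of FKBP5 and NR3C1 was 0.014 on unlogged CPM, 0.22 without the 2 animals farthest from the median, and -0.28 to 0.42 with single animals left out. The r of NR3C1 and AGT there was -0.0024 with DESeq2 size factors, -0.96 without the 2 farthest animals (exact p = 0.0417, n = 4, adjusted p = 0.25) and -0.44 to 0.74 with single animals left out, and in low drip animals -0.046 without the 2 farthest. The cause of these changes was not tested. AGT, at 114 to 364 counts per library, has the least depth. No paired analysis was possible because the labels give no replicate numbers, and those used here only name the animals.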
